A study of Mus musculus with 8 samples.

Results

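The genes of the NADPH oxidases and dual oxidases were followed through lists of methylated and hydroxymethylated DNA regions from the lungs of F1 male mice. The members were 9 genes chosen by name: Nox3, Nox4, Duox1, Duox2, Duoxa1, Duoxa2, Cyba, Ncf1 and Ncf4. A peak was taken as inside a member when a list named the member as its 5' or 3' gene at distance 0, and as outside when the stated distance was above 0. Of 329018 peaks in 6 lists, 46 lay inside a member and 148 were given to a member from outside, and 2 peaks were counted both ways because they lay inside Duoxa1 and outside Duoxa2. At least 1 list had a peak inside 7 of the 9 members, where 50.5% of all 36297 gene symbols in the lists and 73.1% of the 18405 protein-coding ones had one. Duoxa2 and Cyba held none in any of the 6 lists.

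NADPH oxidases move electrons from NADPH across a membrane onto oxygen and so make superoxide or hydrogen peroxide. NOX3, NOX4 and the dual oxidases DUOX1 and DUOX2 are catalytic subunits, DUOXA1 and DUOXA2 carry the dual oxidases through maturation, CYBA (p22phox) is the membrane partner of NOX proteins, and NCF1 (p47phox) and NCF4 (p40phox) are cytosolic subunits best known from the phagocyte enzyme. In the airway, the dual oxidases of the epithelium supply hydrogen peroxide to lactoperoxidase, while phagocytes use the NCF-dependent enzyme for their oxidative burst. In DNA, 5-methylcytosine (5mC) can be oxidised to 5-hydroxymethylcytosine (5hmC), and each was captured here by its own kit, MethylCap for MeDIP-seq and hMethylCap for hMeDIP-seq.

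All mice were male F1 offspring on the C57BL/6J background. The dams (F0) received house dust mite allergen (HDM, 100 μg of protein) or PBS before mating and through pregnancy and lactation, and the sons at 6 weeks of age were sensitised with HDM or saline and challenged on days 14, 18 and 21, with airway measurement on day 23. With dam first (F0) and adult son second (F1), the 4 groups were thus F0-HDM_F1-HDM with both exposed, F0-HDM_F1-Saline with the dam alone, F0-Saline_F1-HDM with the son alone and F0-Saline_F1-Saline with neither. DNA of each group was pooled from mice of 3 dams, and each group had 1 library per assay, 8 libraries in all. There were therefore no replicates, no spread between animals can be given, and every count below describes these pools without a test.

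Each list compared 1 library with 1 other. F0-HDM_F1-HDM vs. F0-Saline_F1-HDM addressed maternal exposure in challenged sons and is called the challenged maternal comparison. F0-HDM_F1-Saline vs. F0-Saline_F1-Saline addressed maternal exposure in unchallenged sons and is called the unchallenged maternal comparison. F0-Saline_F1-HDM vs. F0-Saline_F1-Saline addressed adult exposure and is called the adult comparison. The unchallenged maternal and the adult comparison share the F0-Saline_F1-Saline library, and the F0-Saline_F1-HDM library is the control of the challenged maternal and the searched library of the adult comparison, so that the same place in several lists of one assay is not an independent finding. A peak carries a shape score without unit, which measures how the read coverage fits a peak form, and a p, the chance of a higher value under the normal curve, of up to 0.1. The lists give no read counts, no fold change and no direction of gain or loss. The depth behind a peak is unknown, and since they hold DNA positions, the lung identity of the tissue could not be checked against marker genes.

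The sequences under the places on which the results turn are given on GRCm38. The first is part of a tandem array inside an intron of Nox3, at chr17:3684973-3685089, on the strand of the gene, with 1 repeat unit of 39 bp in capitals.
Nox3 intron: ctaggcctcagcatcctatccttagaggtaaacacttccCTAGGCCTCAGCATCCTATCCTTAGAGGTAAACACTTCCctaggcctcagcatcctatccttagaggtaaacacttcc
The next are the same-numbered coding exons of the neighbouring dual oxidase genes, exon 24 of Duox1 at chr2:122337589-122337819 on the plus strand and exon 24 of Duox2 at chr2:122284748-122284978 on the minus strand, each on its gene's strand and with the CpG dinucleotides in capitals.
Duox1 exon 24: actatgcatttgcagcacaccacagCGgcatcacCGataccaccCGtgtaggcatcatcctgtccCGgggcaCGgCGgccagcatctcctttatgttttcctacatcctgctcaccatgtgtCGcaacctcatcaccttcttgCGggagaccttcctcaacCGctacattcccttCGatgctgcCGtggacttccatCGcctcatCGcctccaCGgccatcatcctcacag
Duox2 exon 24: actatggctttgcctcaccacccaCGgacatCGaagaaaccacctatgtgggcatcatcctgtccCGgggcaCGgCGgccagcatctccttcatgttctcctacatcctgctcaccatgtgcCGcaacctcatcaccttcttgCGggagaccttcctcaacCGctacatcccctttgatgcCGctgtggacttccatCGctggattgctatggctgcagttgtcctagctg
The last are stretches of the plus strand, again with CpG in capitals, from the coding sequence of Il17c beside Cyba at chr8:122423406-122423526 and from the DNA just upstream of Ncf4 at chr15:78244280-78244400.
Il17c exon beside Cyba: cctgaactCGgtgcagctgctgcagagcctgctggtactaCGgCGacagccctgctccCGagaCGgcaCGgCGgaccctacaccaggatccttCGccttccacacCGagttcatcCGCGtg
Ncf4 upstream: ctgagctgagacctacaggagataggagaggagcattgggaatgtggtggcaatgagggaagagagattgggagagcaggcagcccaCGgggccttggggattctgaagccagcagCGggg

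The inside peaks ranked near the middle of their lists, with a median peak above 49.3% of all peaks of its list. Their scores ran from 1.3 to 3.99 with a median of 1.59, and 22 of the 46 reached a p of 0.05 and 8 reached 0.01. The median was 1.64 over the 28 MeDIP-seq peaks and 1.58 over the 18 hMeDIP-seq peaks. Within its own list, the median MeDIP-seq peak of the members scored above 63.0% of all peaks and the median hMeDIP-seq peak above 32.8%. The highest scores belonged to Nox4, Nox3, Duox2 and Ncf1, as the plot of scores by member shows.

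**Figure D1:**
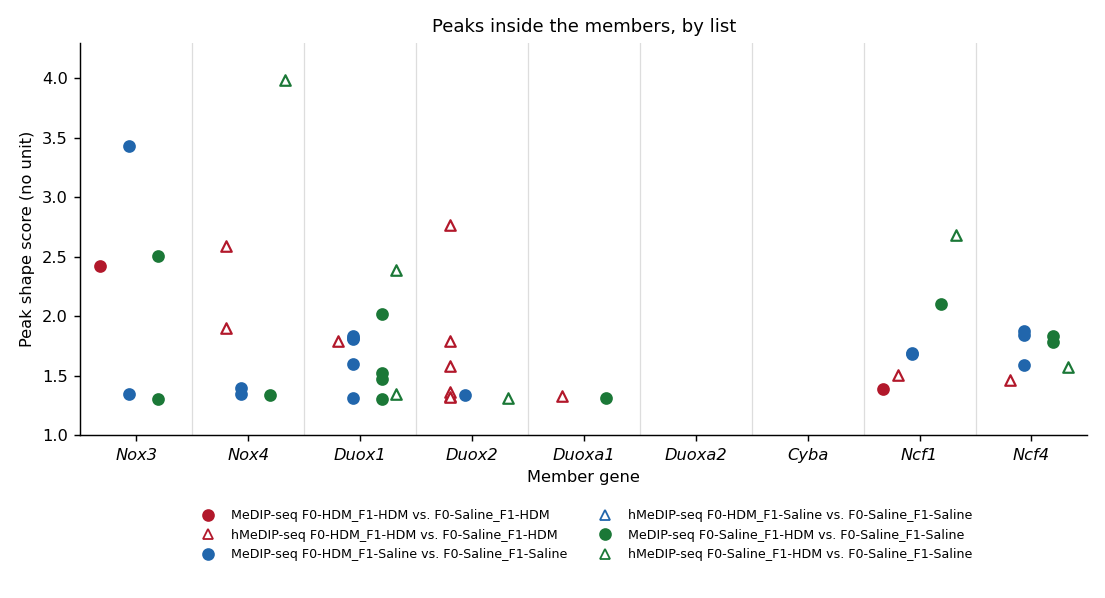
Peak shape score (no unit) of each of the 46 peaks inside a member, by gene, with MeDIP-seq as filled circles, hMeDIP-seq as open triangles and a colour for each comparison. The highest points are the hMeDIP-seq peak of Nox4 in the adult comparison (3.99) and the MeDIP-seq peak of Nox3 in the unchallenged maternal comparison (3.43), and Duoxa2 and Cyba have no point.

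Nox3, the catalytic subunit known in mice for its role in the inner ear, lies at chr17:3635240-3696261 on the minus strand (61.0 kb, 13 exons) and held 5 peaks, all from MeDIP-seq and all in introns. Intron 5 held a peak in each of the 3 MeDIP-seq lists, at chr17:3684907-3685318 over the lists. Its score was 2.42 in the challenged maternal, 3.43 in the unchallenged maternal and 2.51 in the adult comparison. In each of these lists the peak stood high, above 86.1%, 97.1% and 92.6% of the peaks of the list in that order. It was the only inside peak of Nox3 in the challenged maternal list.

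The intron 5 place is an exact tandem array. It runs over 302 bp, from position 3684973 to 3685274, which makes 7.74 copies of the unit printed above, and each of its first 263 bases equals the base 39 bp further on. The unit holds no CpG, its GC content is 48.7%, and each of the 3 peaks contained 1 CpG in all. Between 71.0% and 76.6% of the 51-bp windows of these peaks occur more than once in the genome, with at most 7 copies. These copies include those within the array itself, where a window recurs 39 bp further on. The highest number, 7, does not exceed the 7.74 copies of the unit in the array. Copies outside the array were not counted apart. The repeat masking of the reference covers none of the place (0.0%). The window has the length of a read, and since reads were paired, a mate outside the repeat can still place a read inside it. How the aligner treated reads that fit several places is not given in the sources used here, and the part of the repeat in the score was not tested.

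The other inside place of Nox3, in intron 10 at chr17:3651831-3652240, appeared in the unchallenged maternal list with a score of 1.35 and in the adult list with a score of 1.30. Both scores are near the lower edge of their lists, above 19.2% and 4.35% of peaks. Of the 51-bp windows, 15.3% and 17.2% were found more than once in the genome, and the place has a CA dinucleotide repeat on the plus strand.

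No hMeDIP-seq list placed a peak inside Nox3. The nearest hMeDIP-seq signal lay past the end of the gene, at chr17:3625536-3626168, and was present in all 3 hMeDIP-seq lists at distances of 9071 to 9168 bp. It scored 2.69 in the challenged maternal, 1.49 in the unchallenged maternal and 2.41 in the adult comparison, and no MeDIP-seq list had a peak there. Between 67.5% and 81.4% of it was repeat-masked. Upstream, the challenged maternal hMeDIP-seq list had a peak at 11123 bp with a score of 2.06.

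In all, 63 peaks at 39 places were given to Nox3 from outside, out to 971144 bp. The place with the highest scores of any member lay 929905 to 929942 bp away, at chr17:4626167-4626595, and was shared by 5 of the 6 lists. In MeDIP-seq it scored 12.9 in the challenged maternal, 22.0 in the unchallenged maternal and 23.9 in the adult comparison. In hMeDIP-seq it scored 7.93 in the challenged maternal and 13.2 in the unchallenged maternal comparison and was missing from the adult comparison. This place held no CpG and was 82.7% to 85.5% repeat-masked. Between 33.8% and 38.5% of its windows occurred more than once in the genome, with at most 4 copies. Nox3 is the gene named on one side of this place, and the gene named on the other side, Gm23186, lies closer, at 51424 to 51471 bp. Beyond this naming, nothing in the lists connects the place to Nox3.

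**Figure D2:**
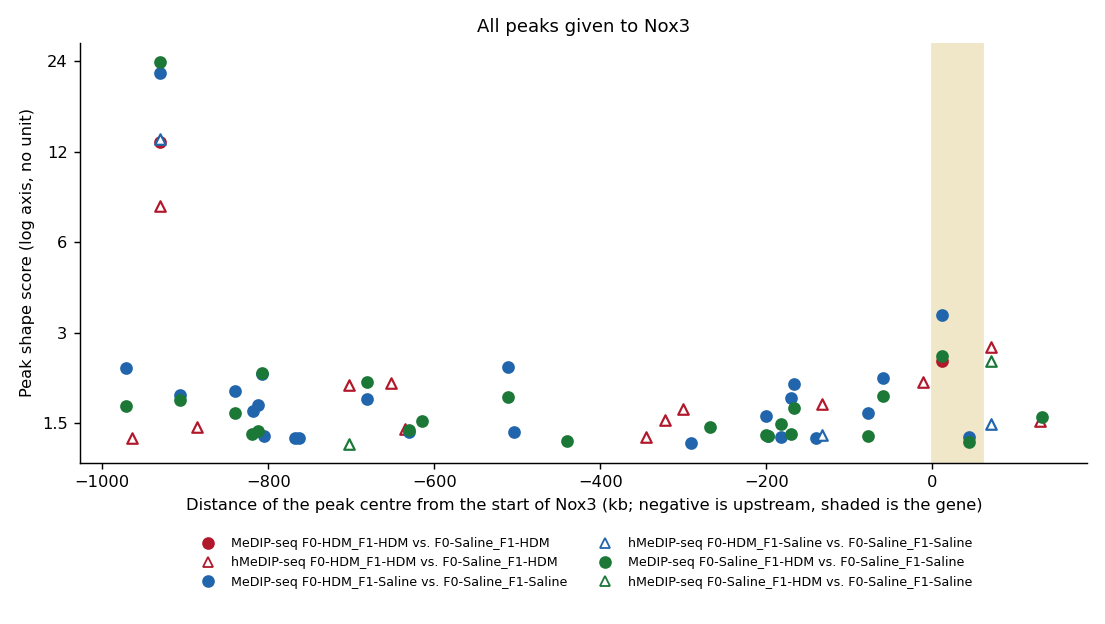
Peak shape score (log axis, no unit) of every peak given to Nox3 against the distance of its centre from the start of the gene in kb, negative upstream, with the gene shaded. The place 929905 to 929942 bp upstream of the gene stands above all others with scores of 7.93 to 23.9, whereas the intron peaks score 1.30 to 3.43.

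Nox4, which makes mainly hydrogen peroxide and needs no cytosolic organiser, is the longest member (chr7:87246096-87398710, plus strand, 153 kb, 18 exons) and held 6 inside peaks, 3 in each assay and all in introns. The highest inside score of any member was its hMeDIP-seq peak in intron 17, at chr7:87376631-87377344 in the adult comparison (score 3.99). In the challenged maternal list the same place was split into adjoining peaks with scores of 2.59 and 1.90. The unchallenged maternal list had no peak there. The place was rich in CpG, with 7.28 to 7.49 per 100 bp, and was 98.3% to 100.0% repeat-masked. In the challenged maternal list, 100.0% of the windows of both peaks had another copy in the genome, and in the adult list 91.1% did, with up to 1237 copies of 1 window. The part of these copies in the scores was not tested.

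The MeDIP-seq peaks inside Nox4 were at the lower end of their lists. Intron 11 held a peak at chr7:87338078-87338499 with scores of 1.40 in the unchallenged maternal and 1.34 in the adult comparison, and intron 2 held a peak with a score of 1.35 in the unchallenged maternal comparison. None of their windows was repeated in the genome. A stronger MeDIP-seq place lay just past the gene, 775 to 789 bp from its end at chr7:87399486-87399898, in all 3 MeDIP-seq lists. It scored 3.06 in the challenged maternal, 3.92 in the unchallenged maternal and 4.20 in the adult comparison. This place is again a repeat without any CpG, 93.5% to 93.9% masked, although 15.9% to 17.0% of its windows had another exact copy. Of the 18 outside peaks of Nox4, at 10 places, the hMeDIP-seq ones recurred. The places 78326 to 78426 bp upstream and 16373 to 16535 bp downstream of the gene were present in all 3 hMeDIP-seq lists, with scores from 1.59 to 2.73.

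The dual oxidase genes lie side by side on chromosome 2 with their maturation factors between them: Duox2 (122279247-122298449, minus strand), Duoxa2 (122298900-122302885, plus), Duoxa1 (122302191-122313730, minus) and Duox1 (122315672-122347972, plus). Duox1 held 12 inside peaks and Duox2 8, but in opposite proportions of the assays. Duox1 had 9 MeDIP-seq and 3 hMeDIP-seq peaks, and Duox2 had 1 MeDIP-seq and 7 hMeDIP-seq peaks. By comparison, 6 of the 7 hMeDIP-seq peaks of Duox2 came from the challenged maternal list, in which Duox1 had 1. That list, the longest of its assay, also held 43174 of the 74732 hMeDIP-seq peaks inside any gene.

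In Duox1, which in airway epithelium provides hydrogen peroxide, the MeDIP-seq peaks fell at the same places in the unchallenged maternal and the adult list. Intron 11 scored 1.82 and 2.02, exon 24 scored 1.60 and 1.52, intron 27 scored 1.83 and 1.30, and exon 29 scored 1.81 and 1.47, in that order of comparisons. The unchallenged maternal list added a peak in intron 17 (score 1.31), and the challenged maternal MeDIP-seq list had no peak in the gene. For hMeDIP-seq, exon 16 scored 1.79 in the challenged maternal and 1.35 in the adult comparison. Exons 23 and 24 were covered by 1 peak of the adult comparison with a score of 2.39.

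This last place, chr2:122337295-122337926, was the only 1 of the 27 inside places of the members that carried both assays. The share of such places over all genes was not computed. The peaks of the 3 lists overlapped over exon 24, and the peaks held 4.48 to 4.81 CpG per 100 bp. Exon 24 itself has 14 CpG in 231 bp. The CpG density of the MeDIP-seq peaks at this place was above that of every other inside MeDIP-seq peak of the members, the next highest being 2.23 per 100 bp at exon 29.

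In Duox2, which supplies the thyroid as well as mucosal surfaces, the challenged maternal hMeDIP-seq list marked a row of coding exons. Exon 14 had the highest score (2.77) at chr2:122291756-122292098. Exon 27 scored 1.79, exon 24 scored 1.58, intron 19 scored 1.36, exon 20 scored 1.33 and exon 4 scored 1.32. All but exon 14 and exon 27 lay in the lower part of their list, above 4.72% to 33.0% of its peaks. The adult list had 1 hMeDIP-seq peak, over exons 24 and 25 (score 1.31), and exon 24 was the only place of Duox2 marked in more than 1 list. The single MeDIP-seq peak, at exon 23 in the unchallenged maternal list, scored 1.34. Outside, 6 peaks at 3 places were given to Duox2, 15808 to 25845 bp past its end and in the span of Sord, the sorbitol dehydrogenase gene. The farthest of these places was marked in 3 lists, with hMeDIP-seq scores of 2.10 in the challenged maternal and 1.35 in the adult comparison and a MeDIP-seq score of 1.43 in the unchallenged maternal comparison.

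The dual oxidase genes resemble each other closely, which bears on where short reads are placed. Over 33 exons paired by number, 26 were equal in length, and the median identity was 77.5%. The exon 24 sequences printed above agreed at 194 bases (83.3% identity), with a longest common run of 47 bp. Exon 6 shared a run of 162 bp. Of the Duox2 peaks, those at exon 4 and exon 20 had 43.8% and 19.8% of their 51-bp windows found more than once. The other 6 peaks had no such window. Of the Duox1 peaks, the 2 at intron 11 had 2.01% and 2.19% of repeated windows and the other 10 had none. The peaks at exon 24 of both genes thus had no window with an exact copy. Copies with mismatches were not searched, so the placement of reads between the 2 genes was not tested.

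Duoxa1 held 2 weak peaks, a MeDIP-seq peak in intron 9 in the adult comparison (score 1.31) and an hMeDIP-seq peak at exon 7 in the challenged maternal comparison (score 1.33). Duoxa2, a short gene of 3986 bp, held none, and the same peaks were given to it from outside at 1326 and 2529 bp.

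Cyba, whose product stabilises NOX proteins in the membrane, held no peak in any list over its 8155 bp (chr8:122424776-122432930, minus strand), although 14 peaks lay within 7104 bp of it. In 5 of the 6 lists a peak lay 949 to 1139 bp past its end, in Il17c, a cytokine gene of the IL-17 family made by epithelium. Over the lists this place was chr8:122423089-122423822, around exon 2 of Il17c. In hMeDIP-seq it scored 3.09 in the challenged maternal, 1.61 in the unchallenged maternal and 2.03 in the adult comparison. In MeDIP-seq it scored 2.18 in the unchallenged maternal and 1.82 in the adult comparison, and the challenged maternal list had no peak there. These peaks held 20 to 27 CpG each, and none of their windows was repeated in the genome.

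On the other side, 511 and 829 bp upstream of Cyba, lay a MeDIP-seq peak of the unchallenged maternal comparison (score 1.29) and an hMeDIP-seq peak of the adult comparison (score 1.51), which shared some bases. These and the remaining upstream peaks fell in the span of Mvd, the mevalonate diphosphate decarboxylase gene.

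Ncf1, the organiser subunit, is the most densely marked member for its length, with 6 peaks in 9.57 kb (chr5:134220053-134229625, minus strand, 11 exons). Intron 7 held a MeDIP-seq peak in each of the 3 lists, at chr5:134224322-134224762. It scored 1.39 in the challenged maternal, 1.68 in the unchallenged maternal and 2.10 in the adult comparison. The unchallenged maternal list had a further MeDIP-seq peak at exon 8 (score 1.69). The hMeDIP-seq peaks lay together near the 3' end of the coding sequence, at chr5:134221762-134222375, over exons 10 and 11 in the adult comparison (score 2.68) and over exon 10 in the challenged maternal comparison (score 1.51). They held 7.0 and 8.52 CpG per 100 bp, and none of the windows of any inside Ncf1 peak was repeated. The annotated span of Gtf2ird2 crosses these places too, although the lists did not name it for these peaks. The other gene they named was Gm24139, 17005 to 19588 bp away.

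From outside, 29 peaks at 19 places were given to Ncf1, on the downstream side in Gtf2ird2 and on the upstream side in Gtf2i, both genes of transcription factors. The place at chr5:134216183-134216910, 3142 to 3514 bp past the gene, was marked in all 3 hMeDIP-seq lists, with scores of 2.10 in the challenged maternal, 1.57 in the unchallenged maternal and 2.97 in the adult comparison. It was as rich in CpG as the coding end of Ncf1, with 6.47 to 7.08 per 100 bp. In Gtf2i, chr5:134286322-134286996 carried both assays, with hMeDIP-seq scores of 2.65 in the challenged maternal and 2.75 in the adult comparison and a MeDIP-seq score of 1.34 in the adult comparison.

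Ncf4, which binds a phosphoinositide of the phagosome membrane, held 7 peaks (chr15:78244801-78262580, plus strand, 10 exons). Its 5 MeDIP-seq peaks were in introns 3, 7 and 9 and came from the unchallenged maternal and the adult list alone. Intron 7 scored 1.88 and 1.78 and intron 9 scored 1.84 and 1.83 in those lists, and intron 3 scored 1.59 in the unchallenged maternal list. The intron 7 peaks held no CpG and lay over a 12-bp tandem repeat, with 29.0% and 26.6% of windows found more than once. Its 2 hMeDIP-seq peaks shared exon 5, with scores of 1.46 in the challenged maternal and 1.57 in the adult comparison and 5.57 and 4.23 CpG per 100 bp.

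The upstream side of Ncf4, which received most of its 16 outside peaks at 9 places, was marked mainly by MeDIP-seq. The place printed above lay 270 to 275 bp before the start, with scores of 1.59 in the unchallenged maternal and 1.79 in the adult comparison. A further place, 2356 to 2407 bp before the start, was present in all 3 MeDIP-seq lists with scores of 1.39, 1.82 and 1.93, and so were places 30780 to 30836 bp and 17811 to 17818 bp upstream. The places present in all 3 lists were repeat-rich, with 61.6% to 99.0% of their bases masked.

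**Figure D3:**
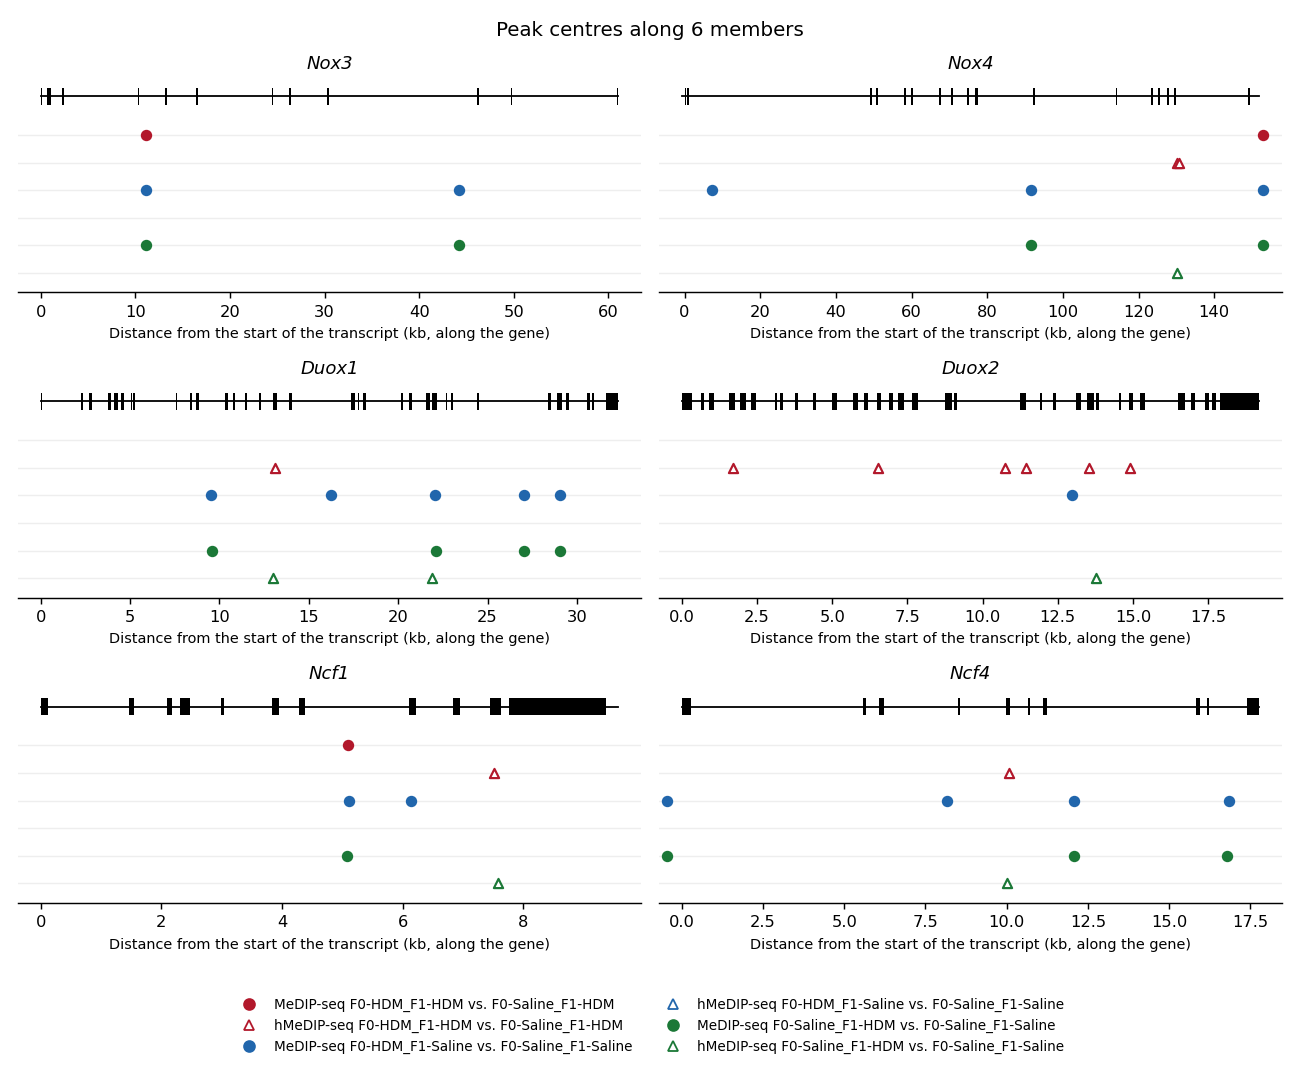
Peak centres along 6 members, in kb from the start of the transcript, with exons as black boxes (narrow exons widened to be visible) and 1 row per list below them; points just past the line are outside peaks of Nox4 and Ncf4. Circles of the MeDIP-seq lists recur at the same positions across comparisons, and open triangles of the hMeDIP-seq lists lie mostly at exons in Duox1, Duox2, Ncf1 and Ncf4, while the row of the unchallenged maternal hMeDIP-seq list is empty.

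Across members, the assays marked different parts of the genes. Of the 18 hMeDIP-seq peaks 14 touched a coding exon (77.8%), against 50% of the 74732 hMeDIP-seq peaks inside any gene. Of the 28 MeDIP-seq peaks 6 did (21.4%), against 15.4% of 68422, and the other 22 were in introns. The members differ in how much of their span is coding, from 1.3% in Nox4 and 2.79% in Nox3 to 24.1% in Duox2 and Duoxa2. The only hMeDIP-seq peaks without a coding exon were the 3 of Nox4 and 1 of Duox2.

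CpG content separated the assays in the same way. The inside MeDIP-seq peaks had a median of 1.11 CpG per 100 bp, close to the 1.01 of all MeDIP-seq peaks, and 2 of them had none. The inside hMeDIP-seq peaks had a median of 3.52, against 3.74 over all hMeDIP-seq peaks, with a lowest value of 1.78. The members thus had about the CpG density of their lists in either assay.

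**Figure D4:**
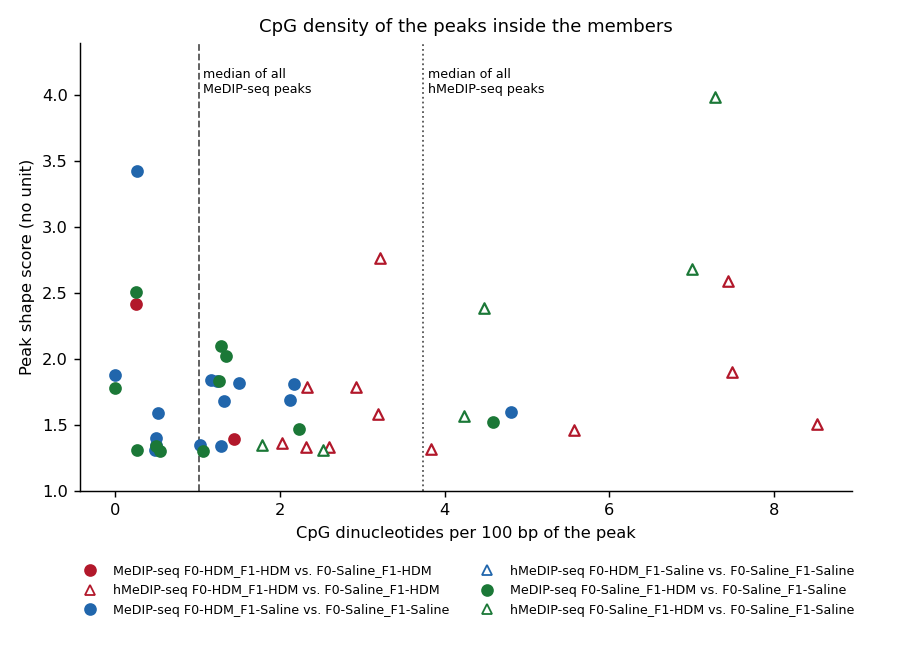
CpG dinucleotides per 100 bp against peak shape score (no unit) for the 46 inside peaks, with MeDIP-seq as filled circles and hMeDIP-seq as open triangles, and vertical lines at the medians of all peaks of each assay (1.01 and 3.74). The MeDIP-seq peak of Nox3 with a score of 3.43 lies near 0, and the hMeDIP-seq peak of Nox4 with a score of 3.99 lies at 7.28.

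The 46 inside peaks fell at 27 places, of which 12 were in 1 list, 12 in 2 lists and 3 in 3 lists. Places marked by MeDIP-seq alone numbered 15 and by hMeDIP-seq alone 11. Of the 28 MeDIP-seq peaks 22 (78.6%) had a peak of another MeDIP-seq list at the same place, against 71.7% of all MeDIP-seq peaks in genes. Of the 18 hMeDIP-seq peaks 11 did (61.1%), against 65.9%. These shares are near those of all genes, and the lists share control libraries. Counting outside peaks as well, MeDIP-seq peaks overlapping an hMeDIP-seq peak of the same comparison numbered 1 in the challenged maternal, 2 in the unchallenged maternal and 3 in the adult comparison.

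Of the 46 inside peaks, 32 had no 51-bp window found more than once in the genome and 6 had more than 50% of their windows repeated. Those 6 were the 3 peaks at intron 5 of Nox3 and the 3 at intron 17 of Nox4. The places differ in kind: windows at Nox3 had at most 7 copies, counting those inside its own tandem array, and windows at Nox4 up to 1237. Among the 8 inside peaks with a p of 0.01 or less, 5 belonged to these places, and the other 3 were the hMeDIP-seq peaks of Duox1 at exons 23 and 24, of Duox2 at exon 14 and of Ncf1 at exons 10 and 11. These 3 had no repeated window.

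Of the MeDIP-seq lists the unchallenged maternal one held most inside peaks of the members, and of the hMeDIP-seq lists the challenged maternal one, each also the longest list of its assay. The challenged maternal MeDIP-seq list, the smallest with 13338 peaks, had a peak inside 2 members (Nox3 and Ncf1), where 7.67% of all genes named in the lists had one. The challenged maternal hMeDIP-seq list, with 89177 peaks, had 12 peaks in 6 members (all with an inside peak but Nox3), against 39.3% of all genes. The unchallenged maternal MeDIP-seq list, with 88438 peaks, had 15 peaks in 6 members (all but Duoxa1), against 34.4%. The unchallenged maternal hMeDIP-seq list had none in any member, against 22.2%, although it named members for 9 peaks outside. The adult MeDIP-seq list had 11 peaks in 6 members (all but Duox2), against 27.9%, and the adult hMeDIP-seq list had 6 peaks in 5 members (Nox4, Duox1, Duox2, Ncf1 and Ncf4), against 24.3%.

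**Figure D5:**
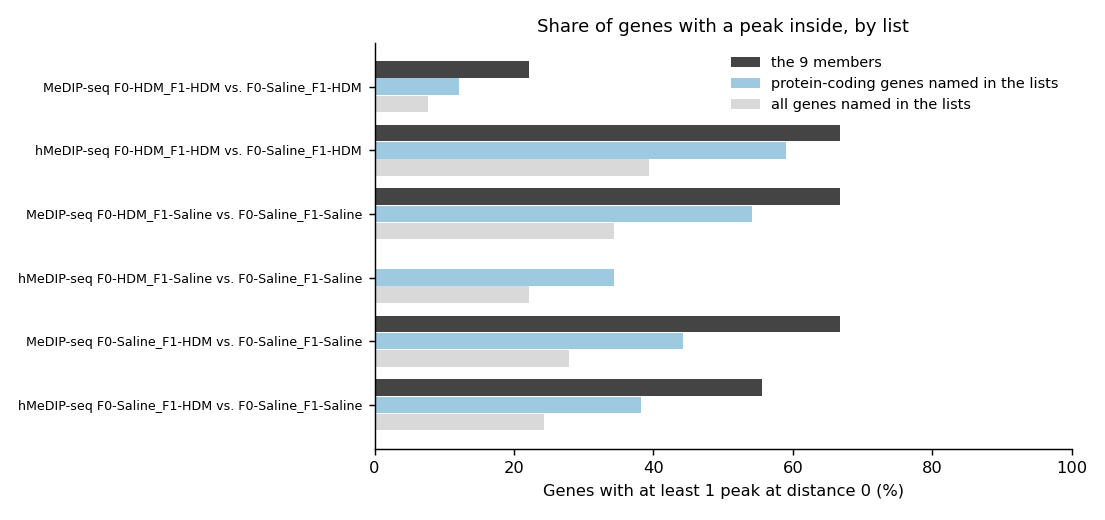
Percent of genes with at least 1 peak at distance 0 in each list, for the 9 members, for 18405 protein-coding genes named in the lists and for all 36297 genes named. The bars of the members reach 66.7% in 3 lists and are missing for the hMeDIP-seq list of the unchallenged maternal comparison, where 34.3% of protein-coding genes had a peak.

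The members are all protein-coding, and many named symbols are not. Among 18405 protein-coding genes named in the lists, the shares with an inside peak were 12.1%, 59.0%, 54.1%, 34.3%, 44.3% and 38.2%, in the order of the lists above. With 9 genes, 1 member more or less moves a share by over 10 percentage points, and the members' shares of 22.2%, 66.7%, 66.7%, 0.0%, 66.7% and 55.6% are given as descriptions. Per 100 kb of gene span, members held more peaks than all genes in the 3 MeDIP-seq lists and the adult hMeDIP-seq list, and fewer in the other hMeDIP-seq lists. Members had 0.634, 3.8, 4.75, 0.0, 3.49 and 1.9 peaks per 100 kb, against 0.442, 4.09, 3.58, 1.41, 2.45 and 1.57.

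Peaks near starts were counted without regard to the gene they were given to. Within 2 kb of any annotated start, the hMeDIP-seq list of the challenged maternal comparison had a peak for 5 members (Duox2, Duoxa1, Duoxa2, Ncf1 and Ncf4), where 31.1% of 21924 protein-coding genes had one. The MeDIP-seq list of the unchallenged maternal comparison and the hMeDIP-seq list of the adult comparison each had 4 (Duox2, Cyba, Ncf1 and Ncf4), against 28.4% and 17.7%. The adult MeDIP-seq list had 2 (Duoxa1 and Ncf4), against 20.3%. The challenged maternal MeDIP-seq list and the unchallenged maternal hMeDIP-seq list had none, against 3.03% and 14.1%. Nox3, Nox4 and Duox1 had no peak within 2 kb of a start in any list. Annotated starts of shorter transcripts within a gene are included, and most of these calls rest on them, as at Ncf1, where the hMeDIP-seq peaks have their centres 7513 and 7580 bp from the start of the gene. By the first start of the gene, the peaks given to a member with a centre within 2 kb were those upstream of Cyba (710 and 1123 bp) and Ncf4 (459 and 463 bp) and the exon 4 peak of Duox2 (1688 bp into the gene). No peak given to Duoxa2 lay within 2 kb of a start of that gene.

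A wider list of 24 genes of the same chemistry was read by the same rule. It held partners of the enzymes, enzymes that use or remove superoxide and hydrogen peroxide, and regulators. Peaks lay inside 2, 14, 12, 6, 11 and 7 of the 24 genes in the order of the lists, and Gpx1 and Prdx1 were named nowhere. The shares over all genes named were 7.67%, 39.3%, 34.4%, 22.2%, 27.9% and 24.3%. Over the protein-coding genes named they were 12.1%, 59.0%, 54.1%, 34.3%, 44.3% and 38.2%. The 6 genes of the unchallenged maternal hMeDIP-seq list, where the members had none, were Nox1, Cat, Prdx6, Epx, Keap1 and Tlr4. In that list 22.2% of all genes and 34.3% of protein-coding genes had a peak.

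Of the 9 partner genes, Nox1, the catalytic subunit of colon, carried the highest MeDIP-seq scores: 5.1 in the challenged maternal, 8.5 in the unchallenged maternal and 8.26 in the adult comparison, at 1 place near chrX:134150023-134150431. In hMeDIP-seq this place scored 2.53 in the challenged maternal and 1.81 in the unchallenged maternal comparison. Copies of its windows in the genome were not counted. Rac2, the small GTPase of the phagocyte enzyme, had a MeDIP-seq peak in all 3 comparisons (1.41, 2.40 and 2.53). Cybb, the catalytic subunit of phagocytes, and Cybc1, its chaperone, had no inside peak. Of the 12 enzymes, Cat (catalase) and Epx (eosinophil peroxidase) had a peak in 5 lists each. Lpo, which uses the hydrogen peroxide of the dual oxidases in airway fluid, had MeDIP-seq peaks in the unchallenged maternal (1.74) and adult (1.46) comparisons and an hMeDIP-seq peak in the challenged maternal comparison (1.42). Of the regulators, Tlr4, the receptor for endotoxin, scored highest with 4.54 in the hMeDIP-seq list of the challenged maternal comparison, and Keap1, the brake on NRF2, was present in all lists but the MeDIP-seq list of the challenged maternal comparison.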

How the data were processed

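Lung DNA was pooled per group, fragmented to about 200 bp, captured and sequenced, and the authors used CASAVA 1.8.0, FastQC and Bowtie 0.12.9 according to their processing notes. Peaks were called by the authors with CLC Genomics Workbench on mm10 (GRCm38). The values in the deposited lists are position, centre, length, a peak shape score, a p-value and the genes on either side with their distances. The score and the p-value of each peak were used as deposited, and the p-value was found to follow from the score under a standard normal curve. The first-named library was taken as searched and the second as control, from the labels. Members, gene lists and rules were chosen with earlier results of these data known.

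Exons, spans and starts came from GENCODE vM21 and sequence from GRCm38. The exons of 1 coding transcript per gene, the one with the longest coding sequence, were used. Distances are those of the lists. Peaks counted as shared at 1 bp or more in common. Every 51-bp window of a peak was searched for exact copies on both strands of the genome, and copies inside the same peak were counted too. Repeat-masked bases are the lower-case letters of the reference. Alternatives were a p of 0.01 or 0.001, membership by annotated span, 5 kb around starts, a 50% overlap and removal of repeated peaks; no group or list was left out. Named genes were the 9 members, 24 related genes and the genes with the most similar counts. Overlaps and window counts were tested on simulated data. Python 3.11.15, numpy 2.4.6, pandas 2.3.3, scipy 1.17.1 and matplotlib 3.10.9 were used.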

Additional observations from a re-analysis of the deposited data

How the results depend on the processing

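Of 74 values under other settings, 48 stayed within 1.5 times the reported one. Counts by annotated span and overlaps of at least 50% of the shorter peak moved none. No inside place was shared by all 6 lists, so leaving out such peaks removed nothing. The 12 values under that setting, counted among the 48, could not move. Nor could the counts of 0 in the unchallenged maternal hMeDIP-seq list fall under a stricter p or without repeated peaks. At a p of 0.01 and again at 0.001, 10 of 12 values moved, and the 2 that stayed were these counts of 0. At a p of 0.01 or less, peaks and members fell to 1 and 1 in each of the 3 MeDIP-seq lists, to 2 and 2 in the challenged maternal and to 3 and 3 in the adult hMeDIP-seq list. At 0.001 or less, 1 peak in 1 member remained in the unchallenged maternal MeDIP-seq list and in the adult hMeDIP-seq list, and 0 elsewhere. Peaks shared by both assays at 0.01 or less numbered 1 in the unchallenged maternal and 0 in the adult comparison. Within 5 kb of a start, the challenged maternal MeDIP-seq list had 2 members (Ncf1 and Ncf4) and the unchallenged maternal hMeDIP-seq list 1 (Ncf1). Without peaks with over 50% of their windows repeated, an alternative chosen after seeing the data, the challenged maternal MeDIP-seq list kept 1 peak in 1 member (Ncf1). Leaving out a replicate could not be run. No paired analysis was possible because each group had 1 library per assay and no test was made. Depth was unknown for every peak.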

Other observations

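Among 36297 genes named in the lists, 48 had the same number of inside peaks as Nox3 in each of the 6 lists, namely 1 in the challenged maternal and 2 in each other MeDIP-seq list and 0 in hMeDIP-seq. For Duox1, with 12 inside peaks, 3 genes came closest, Aebp2, Gm12216 and Tmc5, whose counts differed from those of Duox1 by 1 peak over the 6 lists. The order of the Duox1 counts was 0, 5 and 4 in the MeDIP-seq and 1, 0 and 2 in the hMeDIP-seq lists of the challenged maternal, unchallenged maternal and adult comparisons.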
